A study of Mus musculus with 32 samples.

Results

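The livers described here came from wild-type mice fed for 2 weeks on a choline-free, low-methionine, high-fat diet (cdHFD), which drives fat accumulation and inflammation in the liver, and were collected at zeitgeber time (ZT) 2 or 8. The comparison was ZT8 against ZT2, a step of 6 h early in the day, in 8 of the 32 libraries of the series. Each time held 4 livers, 2 from males (replicates 1 and 2) and 2 from females (replicates 3 and 4). The same step was available in 4 and 4 livers of wild-type mice on chow, with the same split by sex, and was used to show where cdHFD liver differed. All 17853 of 54532 genes that passed an expression filter were members of the comparison. The series was designed to ask how steatohepatitis alters the daily rhythm of the liver transcriptome. The age and strain of the mice, the light schedule and the time of food intake were not given in the sources used here. No histological score of the livers was used, so the disease label rests on the diet. Nothing in the labels says that each replicate is a separate animal, so the p-values speak only of the spread among these libraries, which may be technical.

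The molecular clock of liver cells is a feedback loop of transcription factors. BMAL1 (gene Arntl) pairs with CLOCK or NPAS2 and activates genes that carry E-boxes, among them the Per, Cry, Nr1d and Dbp genes. PER and CRY proteins then inhibit the activators, while the nuclear receptors REV-ERB (Nr1d1 and Nr1d2) repress Arntl, Npas2 and Clock and the ROR receptors activate them. Early in the light phase of a mouse on chow, liver Arntl transcripts are high and Dbp and Nr1d1 transcripts are beginning their rise, and by the middle of the light phase the order is inverted. The factors DBP, TEF and HLF pass the rhythm on to D-box genes of metabolism, and NFIL3 opposes them.

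Total counts were 36.03 to 43.7 M (10 to the power 6 counts) at ZT2 and 41.0 to 49.7 M at ZT8, with 16283 to 16924 and 16537 to 17332 genes at 10 or more counts. The 11 hepatocyte markers tested summed to 58340 to 67910 CPM (counts scaled to a common library total with TMM factors) at ZT2 and 50280 to 69510 CPM at ZT8, and Xist and Ddx3y matched the sex label in 32 of 32 libraries. The 4 livers at ZT2 stood apart from each other. On the first principal component of the 8 libraries, with 29.8% of the variance, ZT2 replicate 4 lay at 69.8 and ZT2 replicate 1 at -40.9, with the ZT8 livers between -16.9 and 16.3. The median gene had an SD of 0.332 in log2 CPM over the 4 ZT2 livers and 0.219 over the 4 ZT8 livers. In whole tissue, fewer cells of a type and less RNA per cell cannot be told apart.

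In cdHFD liver 88 genes (0.493% of those tested) differed between ZT8 and ZT2, with 36 higher (0.202%) and 52 lower (0.291%) at ZT8 (edgeR quasi-likelihood test, Benjamini-Hochberg adjusted p under 0.05). At least 2-fold changes numbered 22 and 39. In 76 of the 88 the 4 livers of one time lay wholly above the 4 of the other, which 6.01% of all tested genes did (2.98% higher and 3.03% lower at ZT8). The 88 were called from these same livers, which favours such separation, so the 76 are no separate support. An unadjusted p under 0.05 was found for 1560 genes (8.74%). The same step in chow liver called 4687 genes (26.3%), 2328 higher (13%) and 2359 lower (13.2%), or 1748 and 2727 with total counts in place of TMM scaling. With the replicate number as a block in a fit to the groups compared alone, chow gave 1482 and 1149. The median absolute log2 fold change over all genes was 0.177 in cdHFD and 0.422 in chow. The number of calls changed when single livers were left out, which also makes a group smaller. Without ZT2 replicate 4 there were 152 calls, and without ZT2 replicate 2 or ZT8 replicates 2, 3 or 4 there were 26, 15, 50 and 39. Without ZT2 replicate 1, ZT2 replicate 3 or ZT8 replicate 1 there were 63, 64 and 69. A fit to the 8 cdHFD libraries alone, with its own estimate of the spread, called 18 genes, and DESeq2 called 270.

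Among clock genes Arntl and Npas2 fell and Hlf rose from ZT2 to ZT8, and the 4 ZT2 livers differed widely. Values are given for replicates 1 to 4 in order. Arntl (BMAL1; chromosome 7, 113207465 to 113314126 in GRCm38) lay at 26.8, 17.8, 4.41 and 1.25 CPM at ZT2 and 0.986, 0.863, 1.01 and 1.44 CPM at ZT8. Its step was -3.40 ± 0.59 on the log2 scale (SE, 4 against 4 livers, edgeR adjusted p = 0.00503), and the groups overlapped, because ZT2 replicate 4 was already among the ZT8 livers. Each SE of a step takes its spread from all 32 libraries and not from the livers compared alone. Over the cdHFD ZT2 livers the SD of log2 CPM for Arntl was 1.99, against 0.303 over the cdHFD ZT8 livers. Npas2, the alternative partner of BMAL1 (chromosome 1, 39193731 to 39363236), had 10.3, 4.698, 1.83 and 0.781 CPM at ZT2 and 0.194, 0.0959, 0.262 and 0.223 CPM at ZT8, a step of -4.45 ± 0.73 (edgeR adjusted p = 0.00785) with no overlap. Both calls were lost without ZT8 replicate 2 (edgeR adjusted p = 0.0549 and 0.0648). Clock, the other partner, was at 30.4, 30.4, 20.7 and 11.5 CPM at ZT2 and 13.3, 13.2, 11.5 and 14.9 CPM at ZT8 and did not pass (-0.77 ± 0.26, edgeR adjusted p = 0.164). In all 3 genes the ZT2 males stood above the ZT2 females, and ZT2 replicate 4 was the lowest of the ZT2 livers.

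Dbp, Per3, Nr1d1 and Ciart showed the mirror image, with both ZT2 females above both ZT2 males and ZT2 replicate 4 the highest ZT2 liver. Dbp, the D-box activator (chromosome 7, 45705088 to 45710203), lay at 1.75, 3.44, 76.4 and 191 CPM at ZT2 and 118, 127, 191 and 87.04 CPM at ZT8. The 2 ZT2 males were thus just above the 4 chow ZT2 livers (0.588 to 1.47 CPM), and the 2 ZT2 females were close to or level with the cdHFD ZT8 livers. Per3, a circadian repressor, had 2.199, 1.795, 16.3 and 39.9 CPM at ZT2 and 27.004, 30.7, 40.2 and 29.1 CPM at ZT8. Nr1d1, the gene of REV-ERB alpha, had 1.96, 30.2, 90.8 and 145 CPM at ZT2 and 51.9, 34.6, 65.5 and 37.4 CPM at ZT8, so that both ZT2 females exceeded all 4 ZT8 livers while ZT2 replicate 1 was far below them. Ciart, a repressor that binds the BMAL1 complex, had 0.647, 0.731, 3.39 and 17.5 CPM at ZT2 and 15.2, 23.9, 24.7 and 13.8 CPM at ZT8. Among the 4 genes none passed the 4 against 4 test, with steps of 1.23 ± 0.88 for Dbp, 1.32 ± 0.57 for Per3, -0.37 ± 0.78 for Nr1d1 and 1.99 ± 0.70 for Ciart (edgeR adjusted p = 0.791, 0.427, 0.973 and 0.22).

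The other clock repressors did not pass either. Per2 had 10.2, 7.67, 15.6 and 45.4 CPM at ZT2 and 51.9, 73.05, 61.6 and 80.3 CPM at ZT8, with no overlap, and a step of 1.82 ± 0.48 (edgeR adjusted p = 0.068), and Per1 had a step of 0.87 ± 0.42 (adjusted p = 0.482). Nr1d2, the REV-ERB beta gene, was at 0.49 and Cry2 at 0.47 on the log2 scale, with the E-box repressor genes Bhlhe40 and Bhlhe41 at 1.07 and 0.13. Cry1 had 31.02, 8.27, 4.099 and 4.45 CPM at ZT2 and 10.3, 11.4, 10.2 and 16.2 CPM at ZT8 and a step of 0.05 ± 0.43, whose sign turned when ZT2 replicate 2, 3 or 4 or ZT8 replicate 4 was left out. For Nr1d1 and Bhlhe41 too the sign of the step depended on which livers were kept. Rora, an activator of Arntl, stood at -0.49 without passing, and Rorb did not pass the expression filter.

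**Figure D1:**
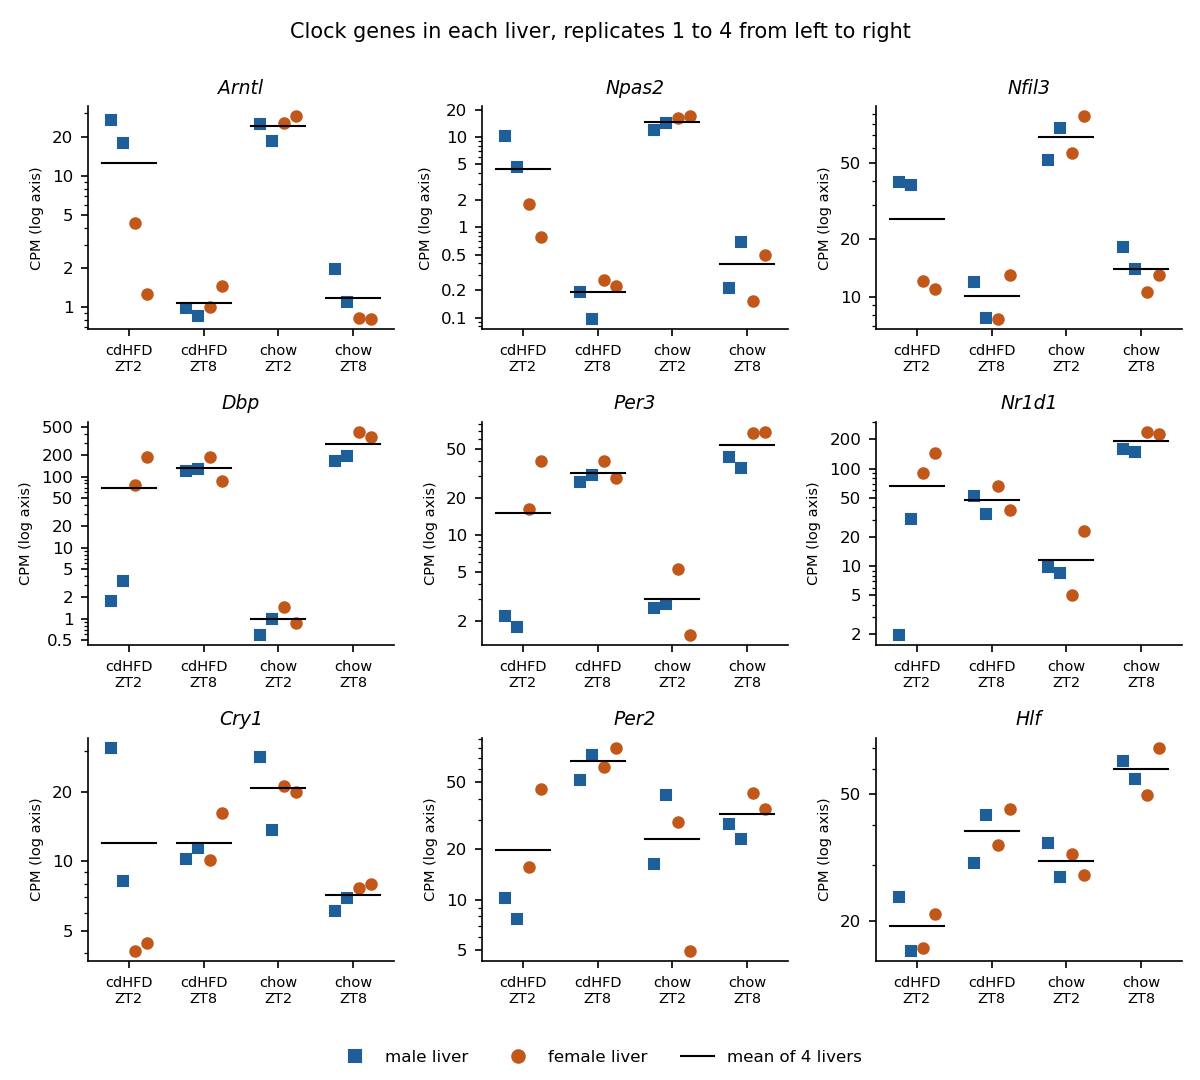
CPM (log axis) of 9 clock genes in each liver of the 4 groups, cdHFD ZT2, cdHFD ZT8, chow ZT2 and chow ZT8, with males as squares, females as circles, replicates 1 to 4 from left to right and the mean of 4 livers as a line. In cdHFD at ZT2 the males lie on the chow ZT2 side and the females on the ZT8 side for Arntl, Nfil3, Dbp and Per3. In chow the times do not overlap for these genes, and at chow ZT8 the females also lie apart from the males, in the same direction.

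The D-box factors gave the one clock call upwards. Hlf (chromosome 11, 90336536 to 90390895) lay at 23.8, 16.2, 16.5 and 21.01 CPM at ZT2 and 30.6, 42.997, 34.6 and 45.1 CPM at ZT8, with no overlap, a step of 0.98 ± 0.16 (edgeR adjusted p = 0.00381) and a call that held without any 1 of the 8 livers. Tef moved by 1.04 ± 0.40 (adjusted p = 0.314), from 21.9 to 166 CPM over the ZT2 livers and 128 to 155 CPM over the ZT8 livers. Nfil3, the D-box repressor, had 39.9, 38.4, 12.01 and 10.9 CPM at ZT2 and 11.9, 7.71, 7.61 and 12.9 CPM at ZT8 (step -1.28 ± 0.35, adjusted p = 0.0838). Counted over the 19 clock genes tested of 20 listed, 1 rose (background 0.202%), 2 fell (background 0.291%) and 16 did not pass. In the fit to the groups compared alone, with or without the replicate number as a block, 0 of the 19 passed.

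The spread at ZT2 can be put as a count. Of the 19 clock genes, 3 lay nearer to the cdHFD ZT8 mean than to the chow ZT2 mean in ZT2 replicate 1, 7 in replicate 2, 13 in replicate 3 and 17 in replicate 4. The median SD of log2 CPM over these genes was 1.22 among the cdHFD ZT2 livers, against 0.307 at cdHFD ZT8, 0.446 at chow ZT2 and 0.388 at chow ZT8. Since the livers with 3 and 7 were male and those with 13 and 17 female, sex and any other difference between these 4 livers cannot be told apart. At chow ZT8 too both females were above both males for Dbp, Per3 (43.4, 34.8, 67.1 and 68.7 CPM) and Nr1d1 (159, 149, 236 and 225 CPM). For Arntl and Clock both chow ZT8 females were below both males, so an order by sex was not particular to cdHFD ZT2. It did not hold at chow ZT8 for Npas2, Nr1d2 or Bhlhe41. Leaving out ZT2 replicate 4 raised the clock calls to 6 higher and 4 lower, and leaving out ZT2 replicates 3 and 4, which was chosen after seeing the data, raised them to 8 and 4. In that setting 53 of the 88 genes kept a call in the same direction, and 46 higher and 133 lower genes were called over the whole table.

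The promoter of Arntl is shown because the gene encodes the core activator and was called lower. It is 1 of 2 RefSeq windows of the gene (GRCm38.p6, chr7:113207261-113207560, plus strand, 250 bases before to 50 after the transcription start), and the capitals mark TAGGTCA, the letters of a ROR and REV-ERB response element.
Arntl: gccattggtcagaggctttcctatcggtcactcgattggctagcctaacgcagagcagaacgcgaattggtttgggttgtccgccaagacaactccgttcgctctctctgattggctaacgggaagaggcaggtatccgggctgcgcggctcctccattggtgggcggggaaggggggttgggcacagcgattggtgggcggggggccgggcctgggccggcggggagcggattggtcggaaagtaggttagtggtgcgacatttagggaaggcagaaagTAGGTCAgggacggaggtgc
On both strands TAGGTCA was found in at least 1 window of 2.97% of the 27025 genes with RefSeq promoter windows, and among the 16 clock genes with a window in Arntl and Nfil3. The match is a description of letters and was not tested as a binding site.

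Some genes downstream of the clock rose as well. Of 21 textbook clock output genes tested, 4 rose and none fell (background 0.202% higher), with a list median of 0.74 against -0.0024 for all genes. They were Usp2, a deubiquitinase, Wee1, the kinase that restrains entry into mitosis, Nampt, the rate-limiting enzyme of NAD salvage, and Tspan4, a tetraspanin. Usp2 lay at 7.35, 4.45, 14.7 and 39.7 CPM at ZT2 and 47.3, 66.7, 63.8 and 64.7 CPM at ZT8, a step of 2.00 ± 0.40 (edgeR adjusted p = 0.0109). Nampt was at 56.9, 49.3, 79.6 and 58.7 CPM at ZT2 and 103, 101, 99.3 and 100.2 CPM at ZT8, a step of 0.74 ± 0.16 (adjusted p = 0.0277), and all 4 ZT8 livers fell within a narrow band. For Wee1 the values were 11.6, 3.26, 12.1 and 7.64 CPM at ZT2 and 21.4, 18.4, 22.8 and 22.2 CPM at ZT8 (1.30 ± 0.32, adjusted p = 0.0277). Tspan4 rose by 0.96 ± 0.22 (adjusted p = 0.0225). In all 4 genes the groups did not overlap. At ZT2 the males and females were mixed for Wee1 and Tspan4, whereas both females were above both males for Usp2 and, narrowly, for Nampt. All 4 calls ended in the fit to the groups compared alone, with or without the replicate number as a block, where 0 of the 21 passed. Usp2 lost its call without ZT2 replicate 1, ZT2 replicate 2 and ZT8 replicate 2, Tspan4 without ZT2 replicate 2, ZT2 replicate 3, ZT8 replicate 2 and ZT8 replicate 4, Wee1 without any 1 liver other than ZT2 replicates 1 and 3, and Nampt without any other than ZT2 replicate 3.

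A second set of genes rose at ZT8, and these belong to the entry into S phase. During G1 the E2F factors switch on cyclin E and the proteins that load the MCM helicase on replication origins, and healthy adult hepatocytes are mostly out of this cycle. Of 30 genes of G1 to S transition and DNA replication, 6 rose and none fell, where the background was 0.202% of genes higher. The list median was 0.87, all 30 fold changes were above 0, 21 had an unadjusted p under 0.05 in the upward direction (background 3.78%), and in 19 the 4 ZT8 livers lay above all 4 ZT2 livers (background 2.98%). The summed level of the list was 363 to 545 CPM at ZT2 and 721 to 843 CPM at ZT8.

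Cdc6, which loads the MCM helicase (chromosome 11, 98907801 to 98923940), had the largest step of the list. It lay at 1.64, 1.09, 1.85 and 1.66 CPM at ZT2 and 6.62, 7.92, 8.34 and 7.54 CPM at ZT8, a step of 2.30 ± 0.54 (edgeR adjusted p = 0.0145). Uhrf1, which guides DNA methylation to replicated DNA (chromosome 17, 56303321 to 56323486), was at 8.66, 4.57, 7.91 and 10.5 CPM at ZT2 and 26.1, 25.4, 34.8 and 31.96 CPM at ZT8 (1.91 ± 0.46, adjusted p = 0.0251). Ccne1, the cyclin E1 gene (chromosome 7, 38097984 to 38107534), was at 3.56, 2.35, 3.05 and 2.93 CPM at ZT2 and 6.904, 7.73, 9.65 and 8.55 CPM at ZT8 (1.45 ± 0.25, adjusted p = 0.00466) and kept its call without any 1 of the 8 livers. In each of the 3 genes every ZT8 liver stood above every ZT2 liver, and ZT2 replicate 2 was the lowest liver of all 8. The chromatin remodeller gene Hells lay at 4.55, 2.26, 3.83 and 2.603 CPM at ZT2 and 7.38, 6.18, 8.804 and 8.66 CPM at ZT8 (1.20 ± 0.27, adjusted p = 0.0263), and the helicase subunit gene Mcm4 at 10.5, 6.14, 10.5 and 7.098 CPM at ZT2 and 18.8, 17.3, 22.3 and 21.96 CPM at ZT8 (1.22 ± 0.31, adjusted p = 0.0489). The sixth was E2f1, the transcription factor itself (1.08 ± 0.26, adjusted p = 0.0292). Among members that did not pass were the licensing factor gene Cdt1 (1.22 ± 0.33), Mcm2 (1.06 ± 0.32), Mcm5 (1.45 ± 0.48), Mcm6 (1.06 ± 0.32) and the sliding clamp gene Pcna (0.64 ± 0.18), with adjusted p of 0.075, 0.117, 0.181, 0.117 and 0.0951 by edgeR.

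The number of calls in this list ranged from 1 to 9 when 1 liver was left out, with 1 without ZT2 replicate 2 and 1 without ZT8 replicate 2, and it was 2 without ZT2 replicates 3 and 4. Cdc6 lost its call without ZT2 replicate 2 and ZT8 replicate 2 (edgeR adjusted p up to 0.0913), Uhrf1 without ZT2 replicate 2, ZT2 replicate 3, ZT8 replicate 2, ZT8 replicate 3 and ZT8 replicate 4, and Hells and Mcm4 without any 1 liver other than ZT2 replicate 1. Over the day Cdc6 averaged 1.56 ± 0.329, 7.604 ± 0.732, 3.01 ± 1.32 and 1.38 ± 0.414 CPM at ZT2, 8, 14 and 20 in cdHFD (SD, n = 4 each), against 0.456 ± 0.0592 and 0.387 ± 0.291 CPM at ZT2 and ZT8 in chow. The ZT8 livers on cdHFD therefore had the highest mean of Cdc6 in these 6 groups. In chow 8 of the 30 genes were higher and 2 lower (background 13% and 13.2%), with a list median of 0.32, and the difference between the diets was called for 4, with 3 above and 1 below (background 3.38% and 3.37%). In chow Cdc6 stood at -0.27 ± 0.54 without passing, Hells fell (-0.92 ± 0.27, edgeR adjusted p = 0.0201) and Ccne1 rose (2.11 ± 0.25, adjusted p = 6.16e-06). The difference between the diets' steps passed for Cdc6 (2.57 ± 0.76, adjusted p = 0.0328) and Hells (2.12 ± 0.39, adjusted p = 0.00197) and did not for Uhrf1 (1.55 ± 0.66, adjusted p = 0.133).

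The promoters of Cdc6, Uhrf1 and Hells are shown because these are the 3 that hold letters of an E2F site, out of 5 G1 to S genes called higher that have a RefSeq window. The windows are RefSeq's (GRCm38.p6; Cdc6 chr11:98907901-98908200, Uhrf1 chr17:56303087-56303386, Hells chr19:38930740-38931039, all plus strand; for Uhrf1 1 of 2 windows), and the capitals mark the spelling TTCCCGC, the related spelling TTGGCGC or the related spelling TTCGCGC on either strand.
Cdc6: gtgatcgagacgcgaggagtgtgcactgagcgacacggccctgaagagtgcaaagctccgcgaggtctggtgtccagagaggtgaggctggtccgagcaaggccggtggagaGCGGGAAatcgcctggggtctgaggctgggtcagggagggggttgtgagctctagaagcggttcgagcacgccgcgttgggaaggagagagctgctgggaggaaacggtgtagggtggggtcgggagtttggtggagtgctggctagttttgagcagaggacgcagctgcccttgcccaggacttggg
Uhrf1: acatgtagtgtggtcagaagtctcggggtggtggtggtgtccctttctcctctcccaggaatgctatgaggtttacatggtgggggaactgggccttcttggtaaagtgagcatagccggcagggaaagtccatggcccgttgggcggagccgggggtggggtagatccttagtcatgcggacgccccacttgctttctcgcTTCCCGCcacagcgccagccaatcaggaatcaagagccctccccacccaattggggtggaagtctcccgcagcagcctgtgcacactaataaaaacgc
Hells: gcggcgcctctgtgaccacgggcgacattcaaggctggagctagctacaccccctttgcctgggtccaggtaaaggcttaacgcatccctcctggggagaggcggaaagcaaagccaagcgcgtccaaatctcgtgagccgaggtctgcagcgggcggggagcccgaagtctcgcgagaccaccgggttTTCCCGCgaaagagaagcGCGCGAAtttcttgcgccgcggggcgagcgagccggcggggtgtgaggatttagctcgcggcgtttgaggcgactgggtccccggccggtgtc
At least 1 of the 3 spellings was found in 12 of the 30 genes called higher that had a window (40%), in 4 of 30 called lower (13.3%), in 15.2% of the 12241 tested genes with a window and in 9.2% of all 27025. The 3 spellings were chosen after other spellings had been looked at in these promoters, and no test was made. Among the 12 were also Rfc4, a subunit of the clamp loader of replication, and Dclre1a, a nuclease of DNA crosslink repair, which rose by 0.87 ± 0.20 and 0.87 ± 0.20 (edgeR adjusted p = 0.0426 and 0.0302).

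Of 34 listed genes of G2, mitosis and cytokinesis none passed, with 16 at an unadjusted p under 0.05, all downwards (background 4.96%), and a list median of -0.66. Their summed level split the ZT2 livers by sex as the clock genes did, with 585, 360, 173 and 131 CPM in ZT2 replicates 1 to 4 and 204, 139, 230 and 217 CPM in the ZT8 livers. The 2 ZT2 males were above the other 6 livers, and the 2 ZT2 females lay within or below the range of ZT8. Ccnb1, the mitotic cyclin B1 gene, was at 23.2, 14.5, 5.405 and 1.35 CPM at ZT2 and 4.02, 2.51, 5.68 and 4.53 CPM at ZT8, and the list's smallest p belonged to Ccnb2 (-1.20 ± 0.38, edgeR adjusted p = 0.1003). Cdca3, a gene of cell division outside the list, was called lower (-1.22 ± 0.31, adjusted p = 0.0476). Median fold changes were -1.45 in males and 0.54 in females for mitosis genes, and 0.76 and 1.06 for the G1 to S list, so the latter pointed upwards in both sexes.

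**Figure D2:**
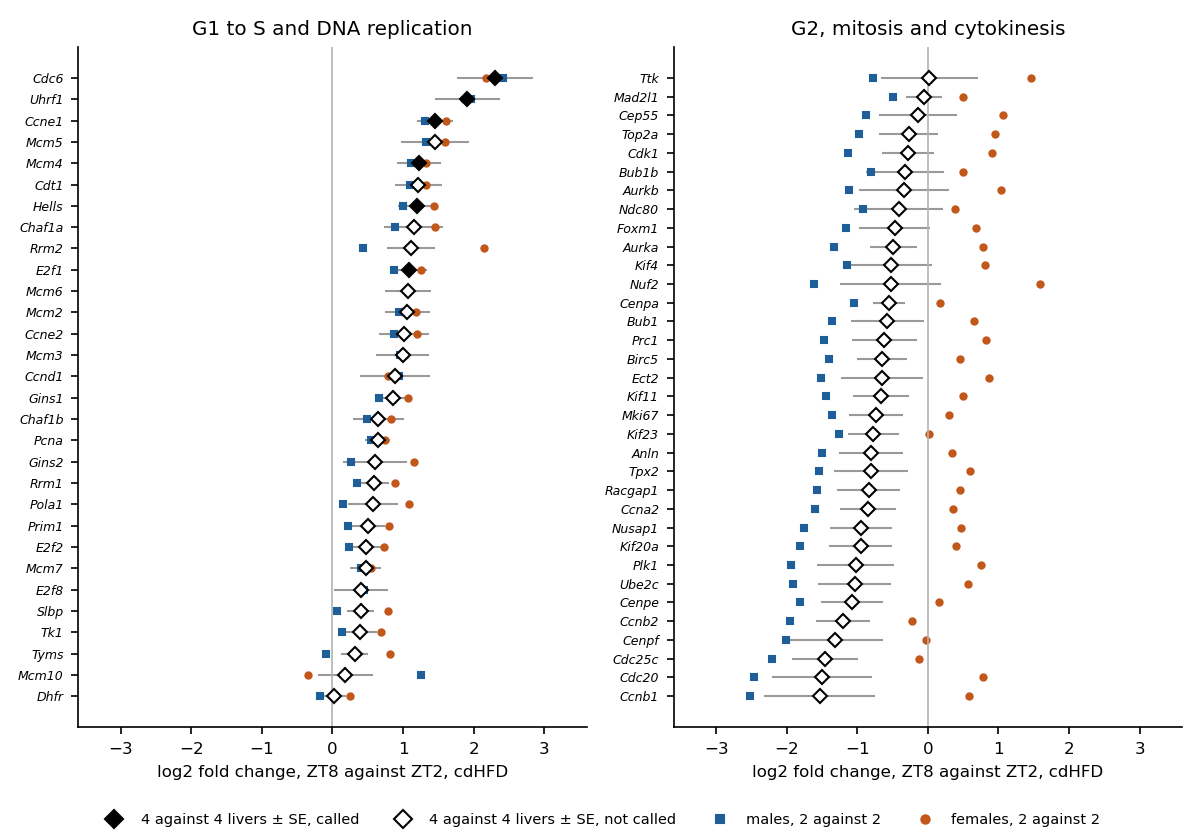
Log2 fold change of ZT8 against ZT2 in cdHFD liver for 30 genes of G1 to S transition and DNA replication and 34 genes of G2, mitosis and cytokinesis, as diamonds with SE (filled where called), with males as squares and females as circles. All 30 diamonds on the left lie above 0 and 6 are filled, while on the right 33 of 34 lie below 0, none is filled, and the squares and circles lie mostly on opposite sides of 0.

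Hacl1, Coq8a and Chka, of fatty acid, coenzyme Q and choline metabolism, fell at ZT8. Hacl1, the peroxisomal lyase of fatty acid alpha-oxidation (chromosome 14, 31598730 to 31641286), lay at 39.7, 25.4, 20.1 and 21.3 CPM at ZT2 and 5.39, 4.72, 7.83 and 5.26 CPM at ZT8, a step of -2.23 ± 0.23 with the smallest adjusted p of all genes (1.12e-06 by edgeR). Coq8a, needed for coenzyme Q synthesis (chromosome 1, 180165238 to 180199602), was at 253, 174, 105 and 92.3 CPM at ZT2 and 37.4, 41.5, 46.9 and 31.4 CPM at ZT8 (-1.98 ± 0.24, adjusted p = 3.35e-05). Chka, choline kinase alpha, takes the first step from choline to phosphatidylcholine (chromosome 19, 3851773 to 3894369) and lay at 264, 183, 82.1 and 82.98 CPM at ZT2 and 35.1, 32.7, 50.03 and 64.3 CPM at ZT8 (-1.67 ± 0.31, adjusted p = 0.00544). For these 3 genes the ZT8 livers were below every ZT2 liver, and both ZT2 males were above both ZT2 females. Hacl1 and Coq8a kept their calls without any 1 liver, and Chka lost its call only without ZT8 replicate 2 (adjusted p = 0.0643). Over the day in cdHFD, Hacl1 averaged 26.6 ± 9.03, 5.801 ± 1.38, 28.2 ± 3.87 and 17.5 ± 1.34 CPM at ZT2, 8, 14 and 20 (SD, n = 4 each), so ZT8 had the lowest mean of the 4 times. In chow Hacl1 fell by less (-0.78 ± 0.23, difference of the steps -1.45 ± 0.32, adjusted p = 0.00532) and Chka by more (-3.82 ± 0.31, difference 2.15 ± 0.44, adjusted p = 0.00305).

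Fatty acid and triglyceride synthesis was covered by 24 genes, of which 1 rose and 1 fell, and the list median was -0.01. Thrsp, also called Spot 14, a protein that promotes lipogenesis (chromosome 7, 97412938 to 97417730), rose most, with 21.3, 9.29, 20.2 and 65.5 CPM at ZT2 and 83.3, 262, 206 and 172 CPM at ZT8 and a step of 2.67 ± 0.47 (edgeR adjusted p = 0.00544), and it kept its call without any 1 liver. The levels were nonetheless below those of chow, where Thrsp averaged 474 ± 81.2 CPM at ZT2 and 554 ± 113 CPM at ZT8 (SD, n = 4 each) and did not pass. Its relative Mid1ip1, which with it acts on acetyl-CoA carboxylase, also rose (29.9, 17.3, 21.5 and 27.5 CPM at ZT2 and 29.7, 96.1, 65.8 and 66.7 CPM at ZT8; 1.43 ± 0.29, adjusted p = 0.00785), with ZT8 replicate 1 inside the range of ZT2. Insig2, which holds the lipogenic factor SREBP in the endoplasmic reticulum, fell from 426, 315, 173 and 64.7 CPM to 77.4, 48.6, 62.2 and 83.4 CPM (-1.80 ± 0.45, adjusted p = 0.0426), and its call was lost without any 1 liver other than ZT2 replicate 4. Srebf1, the SREBP1 gene, and the fatty acid synthase gene Fasn were at 0.999 ± 0.32 and 0.90 ± 0.28 and did not pass (adjusted p = 0.133 and 0.128).

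Trib3, a pseudokinase induced by ATF4 in the integrated stress response (chromosome 2, 152337422 to 152344032), moved in opposite directions in the diets. It lay at 80.1, 103, 74.4 and 94.2 CPM at ZT2 and 63.7, 13.9, 22.2 and 16.4 CPM at ZT8 on cdHFD, a fall with a step of -1.65 ± 0.41 (edgeR adjusted p = 0.0419), and at 6.85, 5.99, 4.77 and 8.78 CPM and 16.7, 26.2, 27.9 and 24.6 CPM in the chow ZT2 and ZT8 livers, a rise of 1.87 ± 0.41 (adjusted p = 0.00151). The difference of the steps was -3.51 ± 0.58 (adjusted p = 7.03e-04). At ZT2 every cdHFD liver was above every chow liver, whereas at ZT8 3 of the 4 cdHFD livers were within or below the range of chow. Its cdHFD call was lost without any 1 liver other than ZT8 replicate 1, the liver that had stayed high. Of the 24 genes of the ATF4 list it was the only one called, while 20 had negative steps, 8 had an unadjusted p under 0.05 downwards (background 4.96%), and the list median was -0.31. Cbs, which makes cystathionine from homocysteine, stood at -0.78 ± 0.21 with no overlap of the groups (adjusted p = 0.0786). Atf5, another factor of stress responses, was called lower (1064, 1124, 621 and 712 CPM at ZT2 and 440.4, 467, 385 and 381 CPM at ZT8; -1.07 ± 0.23, adjusted p = 0.016).

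**Figure D3:**
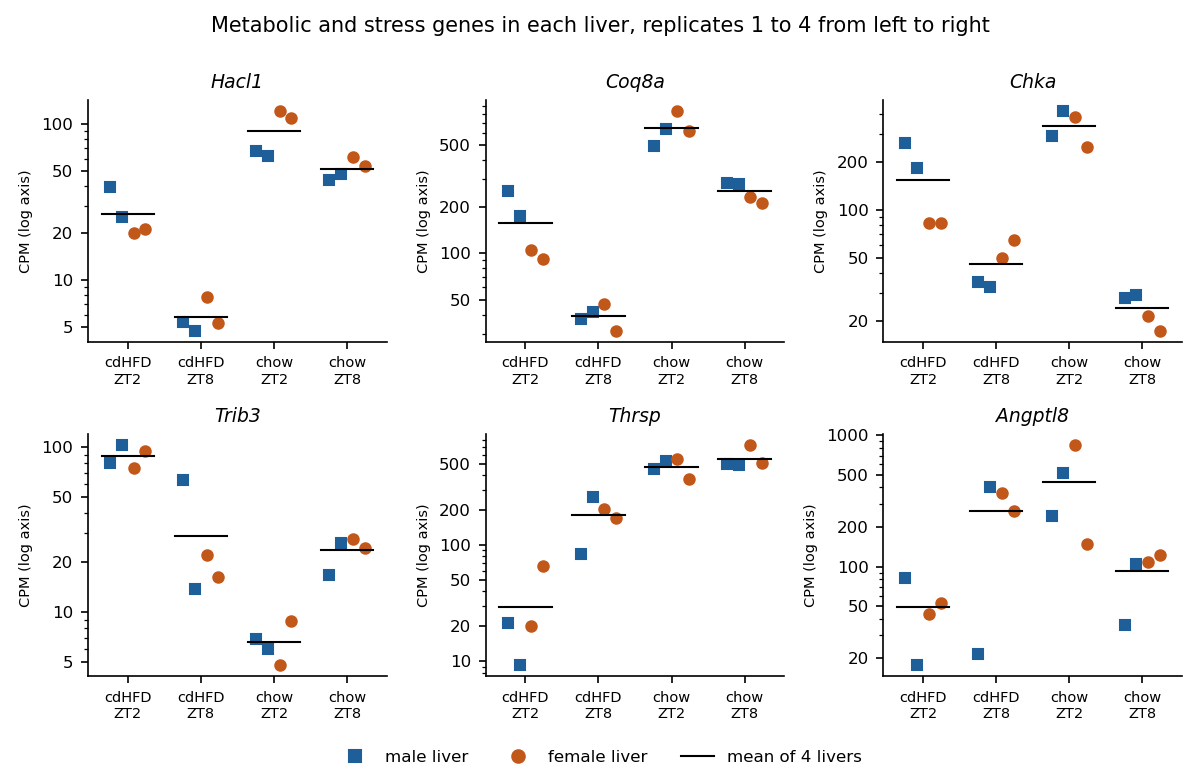
CPM (log axis) of 6 genes of metabolism and stress in each liver of the 4 groups, with males as squares, females as circles, replicates 1 to 4 from left to right and the mean of 4 livers as a line. Hacl1, Coq8a and Chka fall in both diets, Trib3 falls on cdHFD and rises on chow, and Thrsp rises on cdHFD from a level far below chow.

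Further falls came from genes of varied function. Dhrs9, a retinol dehydrogenase gene, was at 14.8, 14.1, 10.9 and 4.07 CPM at ZT2 and 3.15, 1.98, 2.04 and 3.33 CPM at ZT8 (-2.02 ± 0.55, edgeR adjusted p = 0.0265), with its call lost without any 1 liver other than ZT2 replicate 4. Spon2, a secreted matrix protein gene, lay at 78.9, 50.6, 38.1 and 25.95 CPM at ZT2 and 13.2, 12.03, 18.4 and 14.4 CPM at ZT8 (-1.68 ± 0.31, adjusted p = 0.00466), and Tymp, which cleaves thymidine, at 28.2, 24.1, 13.2 and 16.4 CPM at ZT2 and 7.92, 5.37, 9.46 and 5.06 CPM at ZT8 (-1.53 ± 0.28, adjusted p = 0.00466). These 2 kept their calls without any 1 liver. The ubiquitin ligase gene Rnf144a fell by 1.82 on the log2 scale (adjusted p = 0.0265; lost without any 1 liver other than ZT2 replicates 3 and 4) and Ypel2 by 1.59 (adjusted p = 0.0132; lost without ZT2 replicate 1, ZT2 replicate 2 and ZT8 replicate 2). At ZT2 both males were above both females for Dhrs9, Spon2, Tymp, Rnf144a and Ypel2, as for Arntl. The sexes were mixed for Trf, the gene of the iron carrier transferrin, with 2000.0, 2566, 2298 and 2539 CPM at ZT2 and 648, 1265, 1345 and 1318 CPM at ZT8 (-1.05 ± 0.23, adjusted p = 0.0225).

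Other genes that rose included Slfn9, of the Schlafen family, with 11.7, 6.03, 8.02 and 4.42 CPM at ZT2 and 19.8, 20.5, 20.7 and 22.4 CPM at ZT8 (1.43 ± 0.32, edgeR adjusted p = 0.016; lost without ZT2 replicate 2, ZT2 replicate 3 and ZT8 replicate 2), and Ankrd9 with 3.17, 1.17, 1.197 and 2.58 CPM at ZT2 and 3.36, 6.77, 5.71 and 8.43 CPM at ZT8 (1.58 ± 0.34, adjusted p = 0.0137; lost without ZT2 replicate 2, ZT2 replicate 3, ZT8 replicate 2 and ZT8 replicate 4). Dclk3, a kinase gene, rose by 1.32 ± 0.24 (adjusted p = 0.00488) and kept its call without any 1 liver. Fam47e rose by 1.32 ± 0.31 (adjusted p = 0.0265; lost without ZT2 replicate 1, ZT2 replicate 2, ZT2 replicate 3, ZT8 replicate 2 and ZT8 replicate 3). In all 4 the groups did not overlap.

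Some of the sharpest separations belonged to sequences with near-identical copies. Rpl30-ps10, annotated as a processed pseudogene of the ribosomal protein gene Rpl30 (chromosome X, 71803688 to 71804034), lay at 12.5, 19.4, 18.4 and 15.1 CPM at ZT2 and 1.82, 1.53, 1.24 and 1.65 CPM at ZT8 (-3.38 ± 0.57, edgeR adjusted p = 0.00503) and kept its call without any 1 liver. Rpl30-ps8, Rpl30-ps1 and Gm12191, all annotated as processed pseudogenes, fell too (-2.60 ± 0.32, -2.09 ± 0.39 and -2.55 ± 0.40), while Rpl30 was at 0.37 ± 0.19 (adjusted p = 0.577). Reads of such copies can be assigned to any of them, and the sources used here do not give the options used in counting, so these values are uncertain as levels of single loci. The cysteine tRNA gene of the mitochondrial genome, mt-Tc, lay at 22.6, 24.8, 22.3 and 21.7 CPM at ZT2 and 5.98, 7.33, 10.6 and 6.54 CPM at ZT8 (-1.55 ± 0.30, adjusted p = 0.00785; lost without ZT8 replicate 2). Libraries of polyadenylated RNA capture tRNAs only in part. The share of all counts from mitochondrially encoded genes moved with it, from 5.49% ± 0.281 to 4.51% ± 0.570 (SD, n = 4 each) with no overlap, at a two-sided exact permutation p of 0.0286, the smallest that 4 against 4 allows (0.229 adjusted over 8 library measures), and its part in the call was not tested.

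Most other gene lists held no called gene, and of 19 genes of NAD synthesis and use only Nampt passed. Over all genes only 0.493% were called, so a list of this size without a call does not show that its genes were stable. None passed among 26 genes of fatty acid oxidation and ketogenesis, 25 of cholesterol synthesis and uptake, 21 of gluconeogenesis and glycogen, 23 of bile acids, 24 of drug metabolism, 24 of the acute phase, 24 chemokines, cytokines and adhesion molecules, 22 interferon-response genes and 30 matrix genes. None passed either among genes induced by glucocorticoids, immediate early genes, p53 targets, endoplasmic reticulum chaperones, cold-inducible and nuclear-retained RNAs, tubulins, ribosomal proteins and their assembly factors, the respiratory chain, autophagy, amino acid catabolism, the NRF2 response and the growth hormone axis, which held 2 to 34 tested genes each. Interferon-response genes had positive steps in 20 of 22, 8 with an unadjusted p under 0.05 (background 3.78%), and matrix genes in 28 of 30, 1 with such a p. Of 22 heat shock genes none passed (background 0.202% higher). Positive steps were found in 21, with an unadjusted p under 0.05 upwards in 9 (background 3.78%), and the list median was 0.40. Dnajb1, a co-chaperone of HSP70, was at 26.04, 34.4, 23.4 and 31.6 CPM at ZT2 and 35.03, 61.1, 45.2 and 61.3 CPM at ZT8 (0.81 ± 0.23, edgeR adjusted p = 0.0927), and the inducible HSP70 gene Hspa1b at 8.13, 24.4, 12.6 and 21.4 CPM at ZT2 and 37.2, 96.1, 23.8 and 75.5 CPM at ZT8 (1.79 ± 0.56, adjusted p = 0.154). In chow the list median was -0.31, with 2 members higher and 6 lower (background 13% and 13.2%), and for 7 of the 22 the cdHFD step was above the chow step (background 3.38%), among them Stip1, which links HSP70 to HSP90 (difference 0.94 ± 0.19, adjusted p = 0.00616).

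Of the cell type markers only transferrin (Trf), a listed hepatocyte marker, passed (background 0.493% of all genes). It was entered under the symbol Tf, which the table does not hold, so it is not in the hepatocyte sum above. The lists covered hepatocytes, Kupffer cells, lipid-associated macrophages, neutrophils, T and NK cells, B cells, stellate cells, endothelial cells, cholangiocytes, erythroid cells and other tissues. All 12 endothelial markers had negative steps, 6 with an unadjusted p under 0.05 (background 4.96%), and their sum was 311 to 446 CPM at ZT2 and 243 to 317 CPM at ZT8. The 7 neutrophil markers tested summed to 20.1 to 27.5 CPM and 20.1 to 32.04 CPM, and the 11 Kupffer cell markers to 1443 to 1750 CPM and 1445 to 1627 CPM. Cholangiocyte markers summed to 134 to 210 CPM at ZT2 and 146 to 414 CPM at ZT8, where ZT8 replicate 1 alone held the top value. The part of these levels in any gene's step was not tested.

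The chow step had the same direction for most of the genes that also passed there. Of the 88 genes called on cdHFD, 49 were also called in chow, 47 of them in the same direction. The 49 are 55.7% of the cdHFD calls, where 26.3% of all tested genes were called in chow, and 1.05% of the chow calls. The 2 in opposite directions were Trib3 and Hells. The test of the difference between the steps called 1205 genes (6.75%), 603 with the cdHFD step above (3.38%) and 602 with it below (3.37%). Of these, 23 were among the 88, 1085 had been called in chow and not in cdHFD, and 97 in neither. The number called ranged from 511 to 2548 when 1 of the 16 livers was left out, and among cdHFD livers it was 695 without ZT2 replicate 2, 588 without replicate 3, 2486 without replicate 4, and 648 and 640 without ZT8 replicates 2 and 4.

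**Figure D4:**
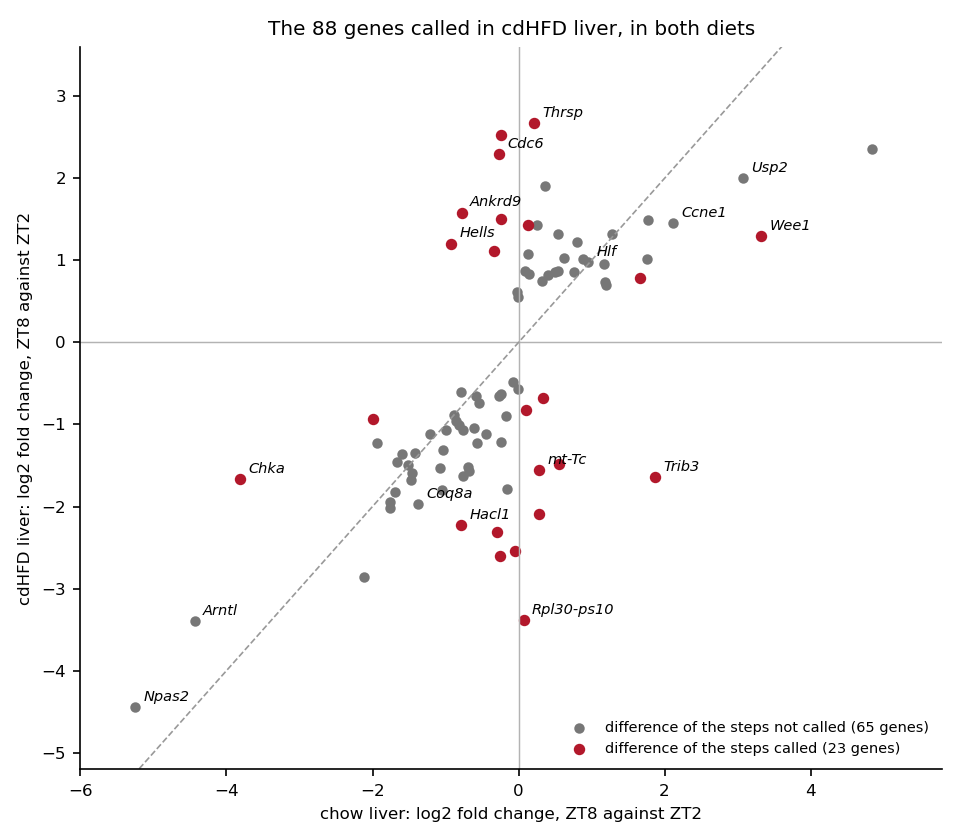
Log2 fold change of ZT8 against ZT2 in chow liver (horizontal) and cdHFD liver (vertical) for the 88 genes called on cdHFD, with the 23 whose steps differed between the diets in red and the line of equality dashed. Trib3 and Hells lie in opposite quadrants, Thrsp and Cdc6 lie high on cdHFD and near 0 in chow, and Chka and Wee1 moved further in chow.

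The cdHFD step was below the chow step in 6 of the 10 clock repressors (background 3.37%) and in 2 of the 4 D-box genes. Of the repressors, 8 rose and 1 fell in chow (background 13% and 13.2%), and none passed in cdHFD, where the share of all genes was 0.493%. The 6 were Nr1d1 (-4.43 ± 1.11), Bhlhe41 (-3.69 ± 0.89), Ciart (-3.16 ± 0.99), Nr1d2 (-2.99 ± 0.65), Per3 (-2.78 ± 0.81) and Per1 (-1.99 ± 0.59; edgeR adjusted p from 0.00404 for Nr1d2 to 0.0469 for Ciart). Dbp and Tef differed too, by -6.91 ± 1.25 and -1.81 ± 0.57 (adjusted p = 0.00325 and 0.0411), and so did Wee1 by -2.02 ± 0.45 (adjusted p = 0.00488). In males on cdHFD the step, 2 against 2 livers, was 3.85 for Per3, 4.82 for Ciart and 2.60 for Tef. In females it was 0.30, 0.89 and 0.24, and the chow steps, from both sexes together, were 4.10, 5.14 and 2.85. The male steps of Dbp, Nr1d1, Nr1d2, Bhlhe41 and Per1 were 5.57, 1.43, 1.62, 1.70 and 1.66. Their female steps were 0.06, -1.19, -0.13, -0.57 and 0.23. Their chow steps, again from both sexes, were larger, at 8.14, 4.06, 3.48, 3.82 and 2.86. Chow steps of each sex are not given here. Among these genes a difference between the sexes on cdHFD was called for Dbp and Per3 alone. These differences were not followed gene by gene when a liver was left out. In chow Dbp lay at 0.588, 0.992, 1.47 and 0.859 CPM at ZT2 and 164, 192, 424 and 366 CPM at ZT8. On cdHFD the ZT2 females were at 76.4 and 191 CPM, and the ZT8 mean was 131 ± 43.8 CPM against 286 ± 128 CPM in chow (SD, n = 4 each). For Nr1d1 the ZT8 livers ran from 34.6 to 65.5 CPM on cdHFD and from 149 to 236 CPM on chow. Per2 stepped further on cdHFD than on chow without a called difference (1.39 ± 0.68, adjusted p = 0.168). No difference passed for Arntl (1.04 ± 0.84), Npas2 (0.80 ± 1.04) or Hlf (0.02 ± 0.23; adjusted p = 0.426, 0.693 and 0.96).

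Other wide differences between the diets' steps lay outside the clock. Angptl8, a hormone induced by feeding that acts on lipoprotein lipase, was at 81.7, 17.8, 43.7 and 52.95 CPM at ZT2 and 21.6, 399.6, 366 and 263 CPM at ZT8 (2.39 ± 0.80, adjusted p = 0.171) with overlapping groups, because ZT8 replicate 1 stayed low. In chow it fell (-2.25 ± 0.80, adjusted p = 0.0263), and the difference was 4.63 ± 1.14 (edgeR adjusted p = 0.0096). Ppp1r3g, a glycogen-targeting subunit of protein phosphatase 1, differed by -5.70 ± 1.60 (adjusted p = 0.0256), and its cdHFD ZT2 livers ran from 0.216 CPM in replicate 1 to 26.8 CPM in replicate 4, the order of the clock genes. The same order was seen in Rgs16, a regulator of G protein signalling, with 22.5, 32.02, 65.6 and 202 CPM at ZT2 (difference -4.20 ± 1.20, edgeR adjusted p = 0.036). In chow Rgs16 had 0.899, 0.42, 1.22 and 17.4 CPM at ZT2 and 8.37, 29.4, 296 and 357 CPM at ZT8. Both chow ZT8 females were thus above both chow ZT8 males, so this order was not particular to cdHFD ZT2. The transporter gene Abcc12 was at 5.496 to 8.54 CPM and 3.49 to 5.35 CPM on cdHFD but at 0 to 0.173 CPM and 0.397 to 0.95 CPM on chow, where it rose. The phosphate transporter gene Slc34a2, Clic3, Tnnc1 and Nat8f5 fell in chow with no called change on cdHFD, with differences of 4.07, 4.50, 4.01 and 4.04. On cdHFD Slc34a2 lay at 0.142 to 0.991 CPM, Clic3 at 0.254 to 2.32 CPM and Tnnc1 at 0.133 to 3.54 CPM. Their steps on that diet thus rest on few counts, and a fall there could hardly be seen. Nat8f5 was at 71.4 and 67.2 CPM in the chow ZT2 males but at 0.108 and 0.523 CPM in the females. Mup8 and Mup12, pheromone carrier genes with near-identical copies, lay under 1 CPM in 7 of the 8 cdHFD livers, so their differences rest on few counts on that diet.

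Males and females were also compared, with a term for every group and sex added after seeing the data. With 2 livers against 2, the step called 115 genes in males (0.644%; 31 higher and 84 lower) and 1 in females (0.0056%), while unadjusted p under 0.05 was found for 1237 and 1019 genes. The test of the difference between the sexes called 4 genes (0.0224%), namely Dbp (5.51 ± 1.01, edgeR adjusted p = 0.0418), Per3 (3.55 ± 0.70, adjusted p = 0.0415), Klhdc8a (-2.43 ± 0.30, adjusted p = 0.0154) and Cdca3 (-1.88 ± 0.32, adjusted p = 0.0415). Among the 88 called genes, 87 had the same sign in both sexes, and the step was larger in males in 38 of the 52 lower and 19 of the 36 higher. The 88 were called from both sexes together, which favours the same sign, so the 87 are no separate support. Chka was at -2.72 in males and -0.53 in females, whereas Cdc6 was at 2.41 and 2.18, Hells at 0.99 and 1.44, and Rpl30-ps10 at -3.24 and -3.54. For none of these was a difference between the sexes called.

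**Figure D5:**
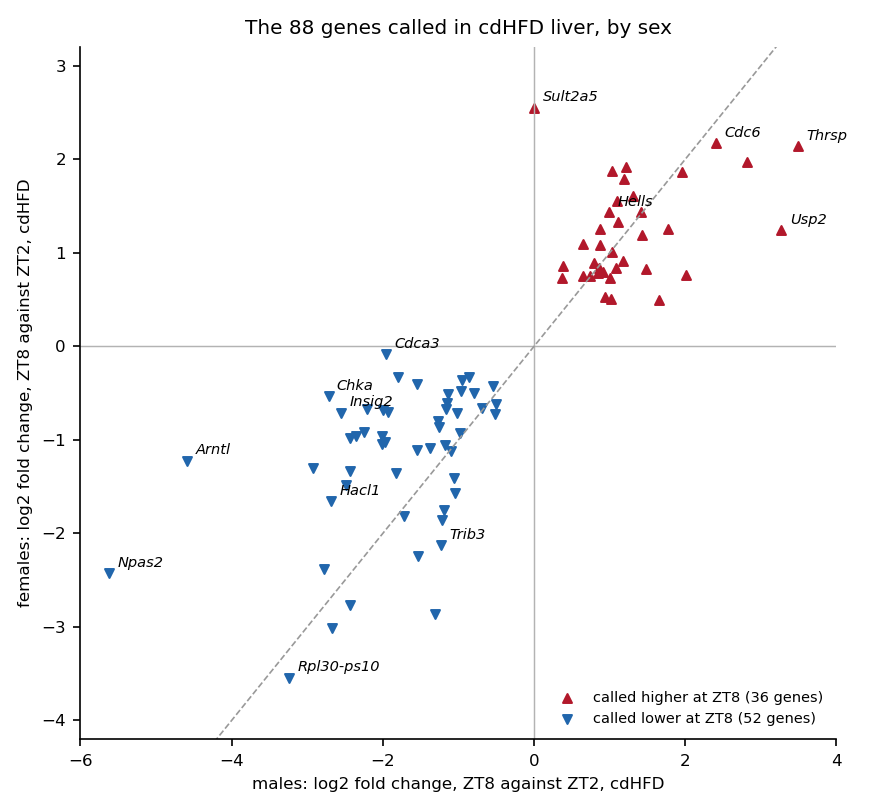
Log2 fold change of ZT8 against ZT2 in cdHFD liver in males (horizontal, 2 against 2 livers) and females (vertical, 2 against 2 livers) for the 88 called genes, with higher genes as upward and lower genes as downward triangles and the line of equality dashed. Arntl, Npas2 and Chka have larger falls in males, with no called difference between the sexes. Cdc6 and Rpl30-ps10 lie near the line, and Sult2a5 lies at 0 in males.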

How the data were processed

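Liver RNA was extracted, captured on poly-T beads and sequenced as non-directional paired-end libraries from samples that passed an RNA integrity threshold, per the labels' protocols. Reads of overlapping antisense genes therefore cannot be told apart. The authors deposited raw counts per gene for 32 libraries, and per the submitters' processing notes used HISAT2, featureCounts and DESeq2 with GRCm38 (mm10). Versions and counting options were not given in the sources used here. Samples were grouped by diet and time from their titles, and table columns were matched by name.

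The analysis used R 4.3.3 and edgeR 4.0.16 (quasi-likelihood test, TMM, default expression filter on 8 groups, 17853 genes) in 1 model with a term per group plus sex over all 32 libraries, with Benjamini-Hochberg adjustment over all genes at 0.05. Contrasts were the step from ZT2 to ZT8 in cdHFD, in chow, and their difference. Each SE comes from a separate linear model of log2 CPM (prior count 2) with the same terms, so it is not edgeR's own. Its residual spread is pooled over all 32 libraries, so it does not measure the spread of single groups. DESeq2 1.42.0 was an alternative. Promoters were read from RefSeq (GRCm38.p6), and coordinates are from GENCODE M21, which held 54409 of the 54532 identifiers.

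Genes were named by rule: all clock genes (1 is not reported here), the 12 furthest called steps in each direction with no overlap of the groups, a mean of at least 1 CPM in a group and no clone-type name, up to 4 called members of each list, the 8 furthest called differences from chow in each direction, and genes called in opposite directions in the 2 diets. Alternatives were total counts as scaling, no filter, a stricter filter, no sex term, only the groups compared, the replicate block, each sex alone and each liver left out, and 2 more were added after seeing the data. Members and lists were chosen with earlier results of these data known. Named outside the rule, after their values were seen, were members of the cell cycle, lipid, heat shock and ATF4 lists given with their values, and Mid1ip1, Rfc4, Dclre1a, Atf5, Trf, Sult2a5, Klhdc8a, Cdca3 and the Rpl30 family. Only genes named by the rule were followed one by one when a liver was left out.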

Additional observations from a re-analysis of the deposited data

Results flagged for a closer look

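Among 130 groups of 4 livers checked for a single liver far from the other 3, 9 stood apart, where chance gives about 1 in 20. At cdHFD ZT2 they were Cry1 in replicate 1 (31.0 CPM, next highest 8.27), Ciart in replicate 4 (17.5 CPM, next 3.39), C1rb in replicate 3 (4.33 CPM, next 0.259) and the TMM factor of replicate 3 (1.26, next 1.18). At cdHFD ZT8 they were Usp2 in replicate 1 (47.3 CPM, the lowest, next 63.8), Trib3 in replicate 1 (63.7 CPM, next 22.2), the share of counts in the 10 most abundant genes in replicate 1 (14.3%, the lowest, next 16.8%), and Mup8 and Mup12 in replicate 2 (1.55 and 11.2 CPM, next 0.0562 and 0.194).

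The step from ZT2 to ZT8 differed between the diets, by the test of the difference itself, for 30 of the 57 genes named by the rule. With values as the cdHFD step minus the chow step on the log2 scale, the clock genes and Wee1 were below, with Dbp at -6.91, Nr1d1 at -4.43, Bhlhe41 at -3.69, Ciart at -3.16, Nr1d2 at -2.99, Per3 at -2.78, Wee1 at -2.02, Per1 at -1.99 and Tef at -1.81. Also below were Ppp1r3g at -5.70, C1rb at -4.84, Rgs16 at -4.20, Abcc12 at -3.79, Trib3 at -3.51, Rpl30-ps10 at -3.45, mt-Tc at -1.83 and Hacl1 at -1.45. Above were Mup8 at 6.71, Mup12 at 5.27, Angptl8 at 4.63, Clic3 at 4.50, Slc34a2 at 4.07, Nat8f5 at 4.04, Tnnc1 at 4.01, the precursor gene Mir122 at 3.91, Cdc6 at 2.57, Thrsp at 2.46, Ankrd9 at 2.36, Chka at 2.15 and Hells at 2.12. Several of these rest on few counts in at least 1 group, among them Mup8, C1rb, Mir122, Slc34a2, Clic3 and Tnnc1. None of those named reached 5 CPM in any cdHFD liver at ZT2 or ZT8.

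Within cdHFD the step differed between males and females, as males minus females on the log2 scale, for Dbp (5.51), Per3 (3.55), Klhdc8a (-2.43) and Cdca3 (-1.88). With 2 livers per sex and time, the sexes and the single livers cannot be told apart.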

How the results depend on the processing

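The number of calls depended on the settings more than the directions did. Against 36 higher and 52 lower genes (22 and 39 at 2-fold) and 1205 differences from chow, no expression filter gave 242 and 274 (100 and 145; 1982), DESeq2 126 and 144 (63 and 75; 1901), and a term for every group and sex, added after seeing the data, 65 higher with 37 at 2-fold. Leaving out ZT2 replicates 3 and 4 together, also added, gave 133 lower with 102 at 2-fold. A fit to the groups compared alone gave 11 and 7 (10 and 7; 289), with 702 higher and 646 lower genes in chow. Males alone gave 21 higher genes (chow 726 and 784; difference 88) and females alone 7 and 5 (7 and 5; chow 361 and 327; difference 131). Leaving out 1 liver at a time gave 6 to 66 higher, 9 to 86 lower, 3 to 46 and 9 to 59 at 2-fold, 511 to 2548 differences, and 1212 to 2970 higher and 1226 to 2859 lower genes in chow. Total counts in place of TMM, the stricter filter and no sex term stayed within 1.5 times of these counts. Causes were not tested.

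Same-numbered livers share their sex. Their deviations from the group means correlated at 0.0788, 0.212, 0.178 and 0.112 in cdHFD and at 0.409, 0.232, 0.232 and 0.364 in chow, so every pair passed 0.1 in chow but not in cdHFD, where a pairing remains unsettled and not every liver correlated best with its own number. With the replicate number as a block, in the fit to the groups compared, 17 and 11 genes were called (11 lower at 2-fold), with 472 differences and 1482 and 1149 genes in chow, each more than in the same fit without the block.

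Of the 29 named genes called, 29 stayed called without a filter, with the stricter filter and with DESeq2, 26 with total counts and with no sex term, and 7 in the fit to the groups compared. Only 9 kept the call without any 1 of the 8 livers, namely Ccne1, Coq8a, Dclk3, Hacl1, Hlf, Rpl30-ps10, Spon2, Thrsp and Tymp. None of the 29 reversed under any of these settings, and 4 uncalled clock genes did. Nr1d1 went to 0.10 and 0.23 in the fits to the groups compared (without and with block), 1.42 in males, 0.26 without ZT2 replicate 4 (-0.84 to 0.26 over single livers left out), 1.54 without ZT2 replicates 3 and 4 and 0.12 with a term per group and sex. Cry1 went to -0.87 in males, -0.09, -0.27 and -0.26 without ZT2 replicates 2, 3 and 4, -0.15 without ZT8 replicate 4 (-0.27 to 1.10 over single livers) and -0.78 without ZT2 replicates 3 and 4. Bhlhe41 went to -0.56 in females, -0.25, -0.21 and -0.08 without ZT2 replicates 1 and 2 and ZT8 replicate 3 (-0.25 to 0.75 over single livers), and Nr1d2 to -0.13 in females. Genes at the lowest levels rest on few counts per library, and small steps there were not detectable at this depth.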
